A study of Mus musculus with 12 samples.

Results

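The heat shock transcription factor gene Hsf1 and 9 genes of heat shock proteins were followed in mouse liver: Hspa1a, Hspa1b, Hspa8, Hsph1, Dnajb1, Hsp90aa1, Hspb1, Hspd1 and Hspe1. The probes were found by gene name in the scanner tables, older symbols included, without use of any measured value. They numbered 18 probes of 9 of the 10 genes, among 41174 probes for 27674 gene or transcript names on each array, and 17 of the 18 were among the 25319 probes bright enough to test. No probe carried the name Hspa1b, and probes 2 and 3 of Hspa1a list accessions of both genes. The study measured total liver RNA of 12 male C57BL/6 mice, 1 array per mouse, on 1-colour arrays of 60-base probes. The 4 groups of 3 mice were Sirt1 heterozygous (Het, SIRT1+/-) on a high-fat diet, Het on a low-fat diet, wild type (WT, SIRT1+/+) on a high-fat diet and WT on a low-fat diet, all kept on their diet for 34 weeks. The labels name the replicates as separate mice and give the Het allele with no restriction to a cell type. The whole liver was extracted, so fewer cells of a type and less RNA per cell cannot be told apart.

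Heat shock proteins are chaperones that bind unfolded proteins and help them to fold, to be held soluble or to be degraded. In unstressed cells HSF1, the protein of Hsf1, is held inactive with chaperones. Misfolded protein frees it, and it binds as a trimer to heat shock elements, arrays of the 5-base unit nGAAn in alternating orientation, and raises the transcription of chaperone genes. In human cells the SIRT1 protein was shown to deacetylate HSF1 and to prolong its binding to DNA, so the gene with 1 copy lost here encodes a regulator of the same response. Liver expresses these chaperones at rest, since hepatocytes make and secrete large amounts of protein, and the inducible ones also follow body temperature over the day.

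Promoter windows are shown because those of Hsph1 and Hspb1, whose levels moved together within groups, held different matches to the heat shock element. For Hsp90aa1, which moved with both, no window could be compared. RefSeq windows on GRCm38.p6, from 250 bases before to 50 after the start, were at hand for 7 of the 10 members, 10 windows in all, and Hsf1, Hspa8 and Hsp90aa1 had no entry in the table used. Capitals mark matches, on either strand, to GAANNTTC, to TTCNNGAA, or to 3 alternating units, GAANNTTCNNGAA or its reverse TTCNNGAANNTTC, which contains both shorter motifs. The Hspa1a and Hspe1 lines and the Hspb1 line show the 150 bases before the start, and the Hsph1 lines show the 50 bases before the start and bases 24 to 50 after it.
Hspa1a, chr17:34972157-34972306, minus strand: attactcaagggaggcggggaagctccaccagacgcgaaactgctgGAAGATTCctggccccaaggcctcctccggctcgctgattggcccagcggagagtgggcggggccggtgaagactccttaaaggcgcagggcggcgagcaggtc
Hspb1, chr5:135887769-135887918, plus strand: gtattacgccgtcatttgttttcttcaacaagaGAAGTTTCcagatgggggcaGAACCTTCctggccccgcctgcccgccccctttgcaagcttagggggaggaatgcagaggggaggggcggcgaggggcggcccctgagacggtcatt
Hspe1, chr1:55087998-55088147, plus strand: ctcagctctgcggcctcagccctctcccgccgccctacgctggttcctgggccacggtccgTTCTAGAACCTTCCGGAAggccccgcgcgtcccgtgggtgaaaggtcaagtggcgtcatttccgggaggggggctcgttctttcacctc
Hsph1, chr5:149636337-149636386, minus strand: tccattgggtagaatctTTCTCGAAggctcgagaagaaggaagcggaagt
Hsph1, chr5:149636287-149636313, minus strand: aaaatgctgcagaTTCTGGAAAGTTCt

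The triple motif lay in 4 of the 10 windows, those of 3 members, against 0.603% of 32851 RefSeq mouse windows of the same length. The Hspe1 window held overlapping triples at -89 to -72 from the start. Hspd1 and Hspe1 are neighbours on opposite strands, their windows share 285 bases, and the triples of the second Hspd1 window, at -144 to -127 from its start, lie in that shared stretch. In Hsph1 the triple lay 37 to 49 bases after the first annotated start, within both of its windows. GAANNTTC alone, present in 7.86% of all windows, was found once in Hspa1a and in Hspa1b, at -104 to -97 from the start, and at 2 places in Hspb1. TTCNNGAA, present in 8.52% of all windows, stood on its own in Hsph1 at -33 to -26 from the first start. The Hspa1a and Hspa1b windows were identical at 296 of 300 bases. Neither Dnajb1 window held any of the 3 motifs, which says only that these letters are not in those windows.

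Levels below are log2 values of the processed signal relative to the 75th percentile of the same array, so a value of 0 is a spot as bright as that percentile, and levels of different probes cannot be compared. That percentile was 975.1 to 2006.4 intensity units, and each array had 58.0% to 71.6% of its spots well above background. Precision is limited by the number of arrays. The 2 Sirt1 probes read 64.1% and 73.8% of WT in Het livers over both diets (log2 differences -0.64 ± 0.09 and -0.44 ± 0.09, SE, limma adjusted p = 0.356 and 0.937), with Het and WT groups not overlapping within either diet. The scan day and the slide changed with the diet for all 12 arrays, so diet and scan day cannot be told apart. Hepatocyte markers were bright on every array, with a mean level of 6.08 to 6.31 over 7 genes in Het high-fat, 6.39 to 6.58 in Het low-fat, 6.15 to 6.29 in WT high-fat and 6.36 to 6.64 in WT low-fat livers. Of the 7, 3 were lower and 0 higher on the high-fat diet over both genotypes by limma, against 29.4% of all probes called. Stellate cell markers were higher on the high-fat diet for 6 of 7 genes over both genotypes, with mean levels of 1.23 to 1.89 in Het high-fat, 0.36 to 1.04 in Het low-fat, 1.34 to 1.44 in WT high-fat and 0.37 to 0.58 in WT low-fat livers. Cholangiocyte markers were higher for 3 of 6, with mean levels of -1.82 to -0.31 in Het high-fat, -2.30 to -1.73 in Het low-fat, -1.54 to -1.40 in WT high-fat and -2.23 to -2.08 in WT low-fat livers. The 2 adipocyte markers tested were higher too. The part of these cell types in the diet differences below was not tested.

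Diet calls among the 17 heat shock probes are given beside the share over all probes, and the shares were not compared by a test. Over both genotypes 3 of 17 passed the test (limma, moderated two-sided test, Benjamini-Hochberg adjusted over all 25319 probes, adjusted p under 0.05), against 29.4% of all probes. Probes 1 and 2 of Hspa1a were higher and probe 2 of Hspd1 was lower in high-fat livers. In Het livers 1 of 17 passed, Hspa1a probe 2, against 14.8% of all probes. That probe met the brightness filter only through the Het high-fat group, where it is high, so the filter and its calls are not independent. In WT livers 0 of 17 passed by limma, against 5.67% of all probes. The 1436 calls behind that share were 261 to 445 without any one of the WT high-fat arrays or of WT low-fat replicates 1 and 3. The lowest unadjusted limma p of the 17 in WT livers was 0.0773, for Hsp90aa1, which ranked 8007 from the lowest among the 25319 probes. The median log2 difference of the 17 probes was 0.05 over both genotypes, 0.12 in Het and 0.11 in WT livers, against -0.03, -0.01 and -0.05 over all probes tested. Scaling each array to its median instead moved the all-probe median of the WT diet difference to 0.063, from -0.055 as scaled here. The 17 differences over both genotypes ran from -0.32 to 0.76.

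**Figure D1:**
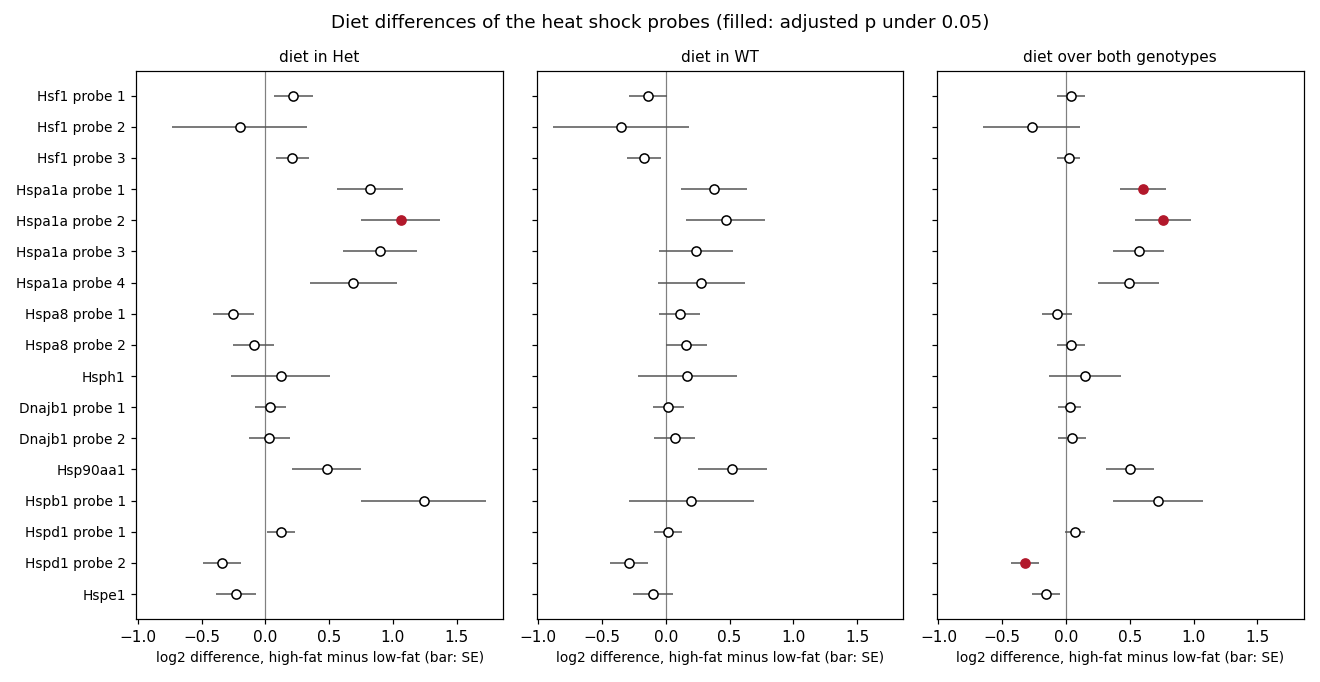
Log2 difference of high-fat minus low-fat livers for each of the 17 tested heat shock probes (down the page), in Het and in WT livers and over both genotypes. Points are limma estimates, bars are 1 SE, and filled points have an adjusted p under 0.05. The Hspa1a probes and Hspb1 probe 1 lie farthest to the right in Het livers, at 0.69 to 1.24, and Hspd1 probe 2 lies left of 0 in both genotypes.

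Hsf1 encodes the transcription factor itself, and its mRNA is known to change little while its protein is activated by modification. Probe 3 (mm7 chr15:76583299-76583358, plus strand, coordinates of the array design) had levels of 0.53, 0.83 and 0.85 in Het high-fat, 0.63, 0.47 and 0.47 in Het low-fat, 0.52, 0.27 and 0.56 in WT high-fat and 0.56, 0.65 and 0.64 in WT low-fat livers. Probe 1, a dim probe, had levels of -2.82, -2.56 and -2.56 in Het high-fat, -2.76, -2.82 and -3.01 in Het low-fat, -2.52, -2.98 and -2.95 in WT high-fat and -2.73, -2.54 and -2.76 in WT low-fat livers. On both probes the diet groups of Het livers overlapped, and on probe 3 all WT high-fat livers lay at or below the lowest WT low-fat liver. Over both genotypes the diet differences were 0.04 ± 0.11 for probe 1 and 0.02 ± 0.09 for probe 3 (SE, n = 6 per diet, limma adjusted p = 0.819 and 0.874). The 95% interval of probe 3 ran from -0.18 to 0.22. For probe 3 the diet difference was 0.21 ± 0.13 in Het and -0.17 ± 0.13 in WT livers, opposite in sign, and the interaction of 0.38 ± 0.18 did not pass the test (limma adjusted p = 0.939).

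Hsf1 probe 2 behaved unlike the other Hsf1 probes. It lies at mm7 chr15:76582655-76582715, plus strand, and the 30 of its bases shown here hold, in capitals, an unbroken run of C and T.
Hsf1 probe 2: gccctgaCTCCCTCCCTCCTCCTgcagcta
Its levels were 5.65, 4.36 and 3.45 in Het high-fat, 3.94, 4.63 and 5.47 in Het low-fat, 4.78, 4.65 and 4.77 in WT high-fat and 4.93, 5.82 and 4.48 in WT low-fat livers. The mice spread 5.17-fold from the lowest to the highest, the widest range of all 17 probes, and the groups overlapped. Its SD within groups, 0.75, was larger than that of 97.3% of the probes tested, against 0.17 and 0.13 for probes 1 and 3. Probes 1 and 3 had a correlation of 0.70 over the 12 arrays (0.62 within groups, a description over arrays that share their scaling). The run of 16 C and T bases of probe 2 is matched or exceeded in 56 of 25319 probes, 0.221%, while the other heat shock probes had runs of 4 to 8, and 63.3% of its bases are G or C, against a median of 43.3% over all probes.

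The within-group correlation with Hsf1 probe 2 was higher the longer a probe's own C and T run was. Its median was 0.10 over 13154 probes with runs of up to 5 bases, 0.24 over 9551 with runs of 6 to 8, 0.36 over 2220 with runs of 9 to 12 and 0.53 over 316 with runs of 13 or more. It was also ordered by GC content, with medians of -0.07 over 8533 probes under 40% GC and 0.61 over 291 probes of at least 60%. With each array's trend on GC content and brightness removed, the order by GC was gone, with medians of 0.06 at the low and -0.02 at the high end. The order by run length remained, with medians of -0.05, 0.09, 0.20 and 0.42, and the SD of Hsf1 probe 2 was then 0.60. The part of base composition in the levels of this probe was not tested beyond these values. The 6 genes most like it over the 12 arrays were Rrnad1 (r = 0.94), Vmn1r201 and Ryr1 (both 0.93), and P2rx2, Gpbp1 and Serinc3 (all 0.92), with a median of 0.10 over all probes. The probes of Vmn1r201 and Ryr1 have C and T runs of 15 and 14. Those of Rrnad1, P2rx2, Gpbp1 and Serinc3 have shorter runs of 9, 5, 7 and 4.

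**Figure D2:**
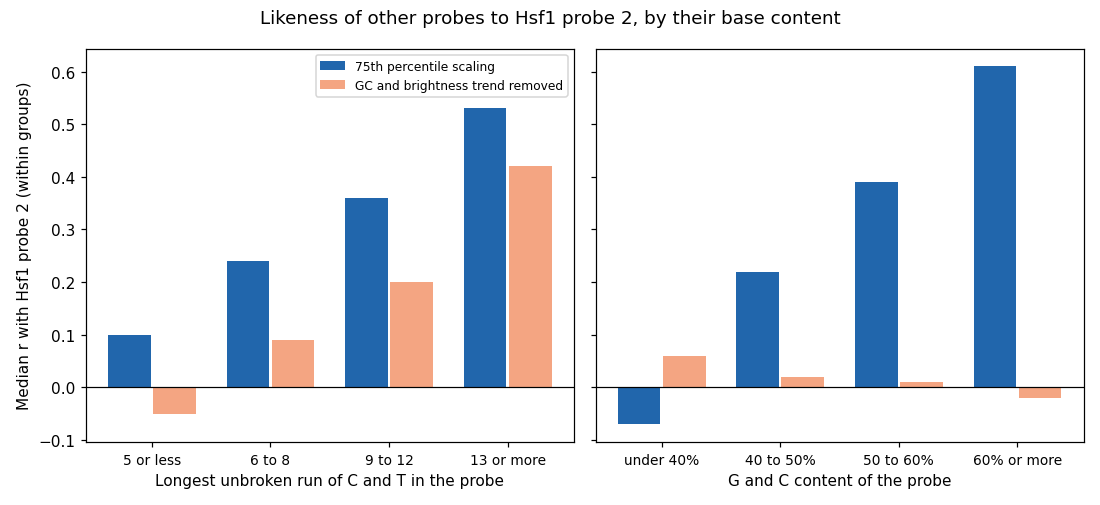
Median within-group correlation (Pearson r over 12 arrays) of all tested probes with Hsf1 probe 2, by the probe's longest run of C and T in bases and by its GC content in percent, as scaled and with each array's GC and brightness trend removed. The median climbs with run length under both treatments, to 0.53 and 0.42, and with GC content only as scaled.

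Hspa1a encodes the strictly inducible cytosolic HSP70, which is scarce in resting tissue. Its 4 probes were the ones that stood highest on the high-fat diet in Het livers along with Hspb1. Probes 2 and 3 are shown because their accession lists cover Hspa1b as well, so these probes cannot tell the gene pair apart. Their mm7 positions are chr17:33068671-33068730 and chr17:33067263-33067322, both minus strand.
Hspa1a probe 2: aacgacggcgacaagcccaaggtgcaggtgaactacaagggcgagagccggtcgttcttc
Hspa1a probe 3: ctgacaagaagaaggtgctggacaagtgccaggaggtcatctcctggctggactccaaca
Probe 1 lies at mm7 chr17:33066941-33067000 and shares 30 bases with probe 4 at chr17:33066911-33066970, so those probes do not give independent readings.

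Hspa1a probe 1 had levels of -1.89, -2.47 and -1.39 in Het high-fat, -2.82, -2.88 and -2.50 in Het low-fat, -2.30, -2.14 and -1.73 in WT high-fat and -2.54, -2.13 and -2.61 in WT low-fat livers. Every Het high-fat liver lay above every Het low-fat liver, while 1 WT low-fat liver lay within the range of the WT high-fat livers. Probe 3 gave -2.08, -2.35 and -1.64 in Het high-fat, -2.89, -2.97 and -2.91 in Het low-fat, -2.55, -2.68 and -1.65 in WT high-fat and -2.88, -2.08 and -2.65 in WT low-fat livers. The same WT low-fat mouse, replicate 2, was the highest of its group on both probes. Probe 4 gave -1.76, -2.28 and -1.0 in Het high-fat, -2.30, -2.50 and -2.30 in Het low-fat, -2.14, -2.06 and -0.96 in WT high-fat and -2.07, -1.81 and -2.12 in WT low-fat livers, with Het high-fat replicate 3 and WT high-fat replicate 3 standing above all others.

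The dimmest of the probes, Hspa1a probe 2, was well above background on all 3 Het high-fat arrays, with levels of -4.56, -4.78 and -5.0, and on none of the Het low-fat arrays, where the measured levels were -6.19, -5.30 and -6.02. It was well above background on 2 of 3 arrays each in WT high-fat livers (-5.08, -5.88 and -4.85, the second not above) and WT low-fat livers (-6.06, -5.26 and -5.89, the last not above). In Het livers its measured mean was 1.06 ± 0.31 higher in log2 terms on the high-fat diet, -4.78 against -5.84 (SE, limma adjusted p = 0.0451). No fold or lower bound is given for Het livers. The low-fat signal was not well above background, and the size of the difference changed with the background correction, as given below. The probe was tested only because it passed the brightness filter in Het high-fat livers, and with no filter the adjusted p was 0.1 in Het livers and 0.0554 over both genotypes. Over both genotypes probe 1 was 0.60 ± 0.18 higher in log2 terms, 1.51-fold (SE, n = 6 per diet, limma adjusted p = 0.0327). Probe 2 had a difference of 0.76 ± 0.22 (limma adjusted p = 0.0256), for which no fold is given because only 2 of 6 low-fat arrays were well above background. Probes 3 and 4 had differences of 0.57 ± 0.20 and 0.49 ± 0.24 that did not pass (limma adjusted p = 0.0571 and 0.15). In Het livers probes 1, 3 and 4 had differences of 0.82 ± 0.26, 0.90 ± 0.29 and 0.69 ± 0.34 (limma adjusted p = 0.057, 0.0595 and 0.187), and in WT livers the 4 probes had differences of 0.38, 0.47, 0.24 and 0.28.

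Between genotypes the Hspa1a diet differences did not differ beyond their error, with interactions of 0.41 to 0.65 over the 4 probes and limma adjusted p-values of 0.974 and above. Leaving out 1 array at a time, the probe 2 call in Het livers held without WT high-fat replicates 2 or 3, WT low-fat replicate 2 or Het low-fat replicate 2 and was lost without any of the other 8 arrays, with differences of 0.88 to 1.33. Over both genotypes the calls of probes 1 and 2 held in 5 of 12 such fits each, with differences of 0.47 to 0.74 and 0.66 to 0.91. Both held without WT high-fat, Het high-fat or WT low-fat replicate 2. With normexp background correction the difference of probe 2 was smaller, 0.55 in Het livers (limma adjusted p = 0.0742) and 0.42 over both genotypes (0.0412).

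**Figure D3:**
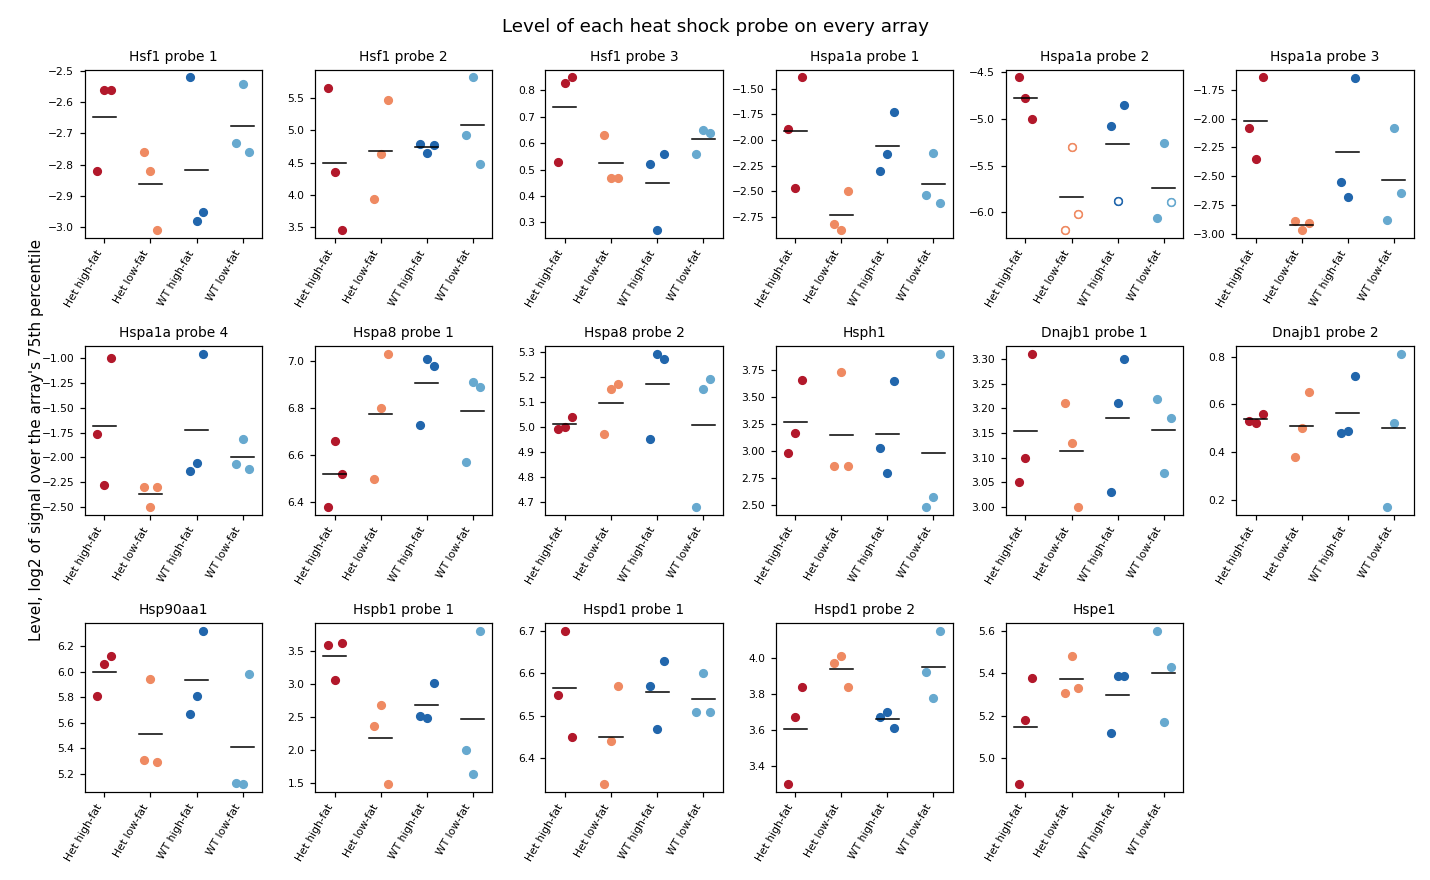
Levels of the 17 tested heat shock probes on every array (log2 of processed signal over the array's 75th percentile), 1 panel per probe, with the groups Het high-fat, Het low-fat, WT high-fat and WT low-fat from left to right. Points are mice, bars are group means of 3, and open points were not well above background. On each Hspa1a probe every Het high-fat liver lies above every Het low-fat liver. The margin is narrow on probe 1 (-2.47 against -2.50) and probe 4 (-2.28 against -2.30). Hsf1 probe 2, Hspb1 probe 1 and Hsph1 show the widest spread within groups.

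Hspa8 encodes HSC70, the constitutive cytosolic HSP70, which is abundant in resting cells. Probe 1 had levels of 6.38, 6.66 and 6.52 in Het high-fat, 6.50, 6.80 and 7.03 in Het low-fat, 6.73, 7.01 and 6.98 in WT high-fat and 6.57, 6.91 and 6.89 in WT low-fat livers. Probe 2 had levels of 4.99, 5.0 and 5.04 in Het high-fat, 4.97, 5.15 and 5.17 in Het low-fat, 4.95, 5.29 and 5.27 in WT high-fat and 4.68, 5.15 and 5.19 in WT low-fat livers. The diet groups overlapped on both probes. Over both genotypes the differences were -0.07 ± 0.12 and 0.04 ± 0.11 (SE, n = 6 per diet, limma adjusted p = 0.676 and 0.818), and the 95% intervals, -0.32 to 0.18 and -0.21 to 0.28, bound the change of this constitutive HSP70 more tightly than that of Hspa1a. The array design places the Hspa8 probes on chromosome 5 of mm7, whereas RefSeq places the gene on chromosome 9, and which locus gives their signal was not tested.

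Dnajb1 encodes HSP40, the cochaperone that delivers clients to HSP70 and stimulates its ATPase. Probe 1 had levels of 3.05, 3.1 and 3.31 in Het high-fat, 3.21, 3.13 and 3.0 in Het low-fat, 3.03, 3.21 and 3.30 in WT high-fat and 3.22, 3.07 and 3.18 in WT low-fat livers. Probe 2 had levels of 0.53, 0.52 and 0.56 in Het high-fat, 0.38, 0.50 and 0.65 in Het low-fat, 0.48, 0.49 and 0.72 in WT high-fat and 0.17, 0.52 and 0.81 in WT low-fat livers. The 12 mice lay within a 1.24-fold range on probe 1, with overlapping groups on both probes. The diet differences over both genotypes were 0.03 ± 0.09 and 0.05 ± 0.11 (SE, n = 6 per diet, limma adjusted p = 0.818 and 0.781), with 95% intervals of -0.16 to 0.22 and -0.20 to 0.29.

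Hsph1 encodes HSP110, a nucleotide exchange factor of HSP70 that helps to dissolve aggregates, and the files name it Hsp110. Its probe (mm7 chr5:148550005-148550064, minus strand) had levels of 2.98, 3.17 and 3.66 in Het high-fat, 2.86, 3.73 and 2.86 in Het low-fat, 3.03, 2.80 and 3.65 in WT high-fat and 2.48, 2.57 and 3.90 in WT low-fat livers. In each group 1 mouse, at 3.65 to 3.90, stood above all the remaining mice of the study, at 2.48 to 3.17. The highest of all 12 was a WT low-fat mouse. The SD within groups, 0.55, was larger than that of 92.4% of all probes, whose median was 0.24. The diet difference of 0.15 ± 0.28 over both genotypes was well within that spread (SE, n = 6 per diet, limma adjusted p = 0.712), and its 95% interval of -0.46 to 0.76 is wide.

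Hsp90aa1 encodes the inducible cytosolic HSP90, which matures kinases and steroid receptors and also holds HSF1. Its probe (mm7 chr12:108209304-108209363, minus strand) had levels of 5.81, 6.06 and 6.12 in Het high-fat, 5.31, 5.94 and 5.29 in Het low-fat, 5.67, 5.81 and 6.32 in WT high-fat and 5.13, 5.12 and 5.98 in WT low-fat livers. In both genotypes 2 low-fat mice lay below all high-fat mice, and the third, Het low-fat replicate 2 or WT low-fat replicate 3, lay among them. The differences were alike in size, 0.48 ± 0.27 in Het and 0.52 ± 0.27 in WT livers, and the difference over both genotypes, 0.50 ± 0.19, did not pass (SE, n = 6 per diet, limma adjusted p = 0.0675). It passed in 2 of 12 fits that left out 1 array, without WT low-fat replicate 3 (0.65, limma adjusted p = 0.0198) and without Het low-fat replicate 2 (0.61, 0.0387). It also passed in 2 of 8 other settings, with the GC and brightness trend of each array removed (0.68, 0.0209) and with slide as a random block (0.54, 0.00712). The random block had a within-slide correlation of -0.18 and called 12811 of all probes over both genotypes, against 7433 in the main fit. The limma adjusted p reached 0.146 over the leave-outs and 0.127 over the other settings.

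Hspb1 encodes the small heat shock protein HSP25, which holds unfolding proteins without ATP. Probe 1 (mm7 chr5:134860337-134860524, plus strand) had levels of 3.60, 3.06 and 3.62 in Het high-fat, 2.37, 2.69 and 1.48 in Het low-fat, 2.52, 2.49 and 3.02 in WT high-fat and 1.99, 1.63 and 3.81 in WT low-fat livers. The Het groups did not overlap, while the WT low-fat group held both the second lowest and the highest mouse of the study, a range of 5.02-fold over all 12. The difference was 1.24 ± 0.49 in Het livers (limma adjusted p = 0.11), 0.20 ± 0.49 in WT livers and 0.72 ± 0.35 over both (SE, limma adjusted p = 0.142), none of which passed. Without WT low-fat replicate 3 it was 1.06 over both genotypes and passed (limma adjusted p = 0.0112), as did the Het difference of 1.24 (0.0255). The cholangiocyte and stellate marker levels given above moved with diet too, and their part was not tested. The second Hspb1 probe, placed on chromosome 13 of mm7 by the array design although the gene is on chromosome 5, was well above background on no array, and its measured levels of -8.62 to -7.26 were not tested.

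Hspd1 and Hspe1 encode HSP60 and HSP10, the barrel and the lid of the mitochondrial chaperonin. Hspd1 probe 2 (mm7 chr1:55325929-55325988, minus strand) is shown because it fell while the brighter probe of the same gene did not pass.
Hspd1 probe 2: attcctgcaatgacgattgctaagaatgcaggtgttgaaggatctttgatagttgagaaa
Its levels were 3.30, 3.67 and 3.84 in Het high-fat, 3.97, 4.01 and 3.84 in Het low-fat, 3.67, 3.70 and 3.61 in WT high-fat and 3.92, 3.78 and 4.15 in WT low-fat livers. High-fat livers lay at or below the low-fat livers of their genotype. The difference was -0.34 ± 0.15 in Het, -0.29 ± 0.15 in WT and -0.32 ± 0.11 over both genotypes, to 80.3% of the low-fat level (SE, n = 6 per diet, limma adjusted p = 0.0473). Leaving out 1 array at a time, the call held without replicate 3 of Het high-fat or replicate 2 of WT low-fat livers and was lost without any of the other 10, with differences of -0.38 to -0.24.

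Hspd1 probe 1 (mm7 chr1:55325295-55325354, minus strand) had levels of 6.55, 6.70 and 6.45 in Het high-fat, 6.34, 6.44 and 6.57 in Het low-fat, 6.57, 6.47 and 6.63 in WT high-fat and 6.51, 6.60 and 6.51 in WT low-fat livers. All 12 mice lay within a 1.28-fold range, and the difference over both genotypes was 0.07 ± 0.08 (SE, n = 6 per diet, limma adjusted p = 0.556), with a 95% interval of -0.11 to 0.25 that does not reach the estimate of probe 2. Hspe1 (mm7 chr1:55338388-55338447, plus strand) had levels of 4.88, 5.18 and 5.38 in Het high-fat, 5.31, 5.48 and 5.33 in Het low-fat, 5.12, 5.39 and 5.39 in WT high-fat and 5.60, 5.17 and 5.43 in WT low-fat livers. Its groups overlapped, with a difference of -0.16 ± 0.11 (SE, n = 6 per diet, limma adjusted p = 0.298). Hspe1 and Hspd1 probe 2 had a correlation of 0.75 over the 12 arrays (rho = 0.60, 0.70 within groups, and 0.53 without the 2 arrays farthest from the median), given as a description. Hspd1 probe 1 ran the other way, with -0.35 with Hspe1 (rho = -0.40, -0.27 within groups) and -0.48 with probe 2 of its own gene (-0.37 within groups). With the GC and brightness trend of each array removed, its within-group correlations were 0.67 with Hspe1 and 0.71 with probe 2. The 6 genes most like the mean of Hspd1 probe 1 and Hspe1, a pair that did not vary together as scaled, were Dcun1d2 (r = 0.84), Zfp770 (0.79), 6430548M08Rik (0.78), Ube2d3 and Snrnp48 (both 0.77) and Tsen15 (0.76), against a median of 0.01 over all probes.

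Loss of 1 Sirt1 copy moved no heat shock probe past the test. By limma 0 of the 17 probes passed for genotype in high-fat livers, in low-fat livers or with the diets pooled, nor for the interaction of genotype with diet, against 0% of all probes in each. The lowest unadjusted limma p of these comparisons was 0.0374, for Hspa8 probe 1 in high-fat livers, which ranked 1794 from the lowest among 25319 probes. Over both diets the Het minus WT differences ran from -0.32 for Hsf1 probe 2 to 0.22 for Hspb1 probe 1, with adjusted p-values of 0.978 and above. The 95% intervals were narrowest for Hspd1 probe 1 (-0.22 to 0.14), Dnajb1 probe 1 (-0.22 to 0.16) and Hsf1 probe 3 (-0.11 to 0.30), and wide for Hsph1 (-0.47 to 0.75) and Hspb1 probe 1 (-0.55 to 1.0).

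On the high-fat diet the groups did not overlap on 2 of 17 probes, against 15.5% of all probes. Hspa8 probe 1 was lower in every Het than in every WT liver (-0.39 ± 0.16, SE, n = 3 per group, limma adjusted p = 0.527), also on the slide that holds all Het high-fat arrays and 1 WT high-fat array (-0.46). Hspb1 probe 1 was higher in every Het liver (0.75 ± 0.49, limma adjusted p = 0.699), and the difference on that slide was 0.40. On the low-fat diet 3 probes did not overlap, against 4.74% of all probes: Hsf1 probe 1 (-0.19 ± 0.15) and Hspa1a probes 3 and 4 (-0.39 ± 0.29 and -0.37 ± 0.34) were lower in Het livers (limma adjusted p = 1 for each). On the slide that holds all WT low-fat arrays and 1 Het low-fat array, the differences were -0.09, -0.35 and -0.29 for Hsf1 probe 1 and Hspa1a probes 3 and 4.

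Between diets the groups did not overlap on 6 of 17 probes in Het livers, against 35.7% of all probes, and on 2 of 17 in WT livers, against 30.1%. The Het ones were the 4 Hspa1a probes and Hspb1 probe 1, higher on the high-fat diet, and Hspd1 probe 2, lower. The WT ones were Hspd1 probe 2 and Hsf1 probe 3, both lower. Over both genotypes 0 of 17 diet groups were free of overlap, against 12.7% of all probes, and over both diets 0 of 17 genotype groups, against 0.0513%.

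The clearest pattern of the heat shock genes ran between mice of the same group rather than between groups. Hsph1 and Hsp90aa1 varied together from mouse to mouse, with a within-group correlation of 0.96 over the 12 arrays, the fourth highest of 25241 probes ranked against Hsph1. Over all 12 arrays it was 0.83 (rho = 0.82), 0.89 without the 2 arrays farthest from the median, 0.85 on the 6 high-fat arrays and 1.0 on the 6 low-fat arrays. Hspb1 probe 1 went with both, with within-group correlations of 0.84 with Hsph1 and 0.81 with Hsp90aa1, and with Hsph1 it was 0.50 over the 6 high-fat arrays and 0.85 over the 6 low-fat ones. Dnajb1 probe 2 correlated at 0.68 with Hsph1, on a far smaller spread (SD 0.19), and Dnajb1 probe 1 at 0.4. Removing the GC and brightness trend of each array left 0.95, 0.85 and 0.70 for Hsph1 with Hsp90aa1, Hspb1 probe 1 and Dnajb1 probe 2. These correlations are descriptions over arrays that share their scaling.

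The 4 mice with the highest Hsph1 of the study, at levels of 3.65 to 3.90, were WT low-fat replicate 3, Het low-fat replicate 2, WT high-fat replicate 3 and Het high-fat replicate 3. They were 1 in each group, and so on both scan days. Over all probes the deviations of these arrays from their group means had correlations of -0.02 to 0.17 with each other, except 0.46 between Het high-fat replicate 3 and WT low-fat replicate 3. On these arrays, picked for high Hsph1, Hsp90aa1 and Hspb1 probe 1 were also above their group means on all 4, by 0.12 to 0.57 and 0.20 to 1.33. So were Hspa8 probe 2 (by 0.03 to 0.19), Dnajb1 probe 1 (0.02 to 0.16) and Hspe1 (0.02 to 0.23). The remaining heat shock probes were not above on all 4. Hspa1a followed Hsph1 less closely, with within-group correlations of 0.08 to 0.30 over its 4 probes, and 0.08 to 0.69 with the GC and brightness trend removed, the highest for probe 2. Over all mice of a diet they were 0.41 to 0.91 over high-fat arrays and -0.54 to 0.22 over low-fat ones, and the difference was not tested. The Hspa1a probes agreed among themselves, at 0.81 to 0.90 within groups for probes 1, 3 and 4, while the dim probe 2 had 0.12 with probe 1. Hspa8 probes 1 and 2 had within-group correlations of 0.67 and 0.82 with Dnajb1 probe 2 but of -0.16 and 0.05 with Dnajb1 probe 1, and the Dnajb1 probes had -0.04 with each other.

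**Figure D4:**
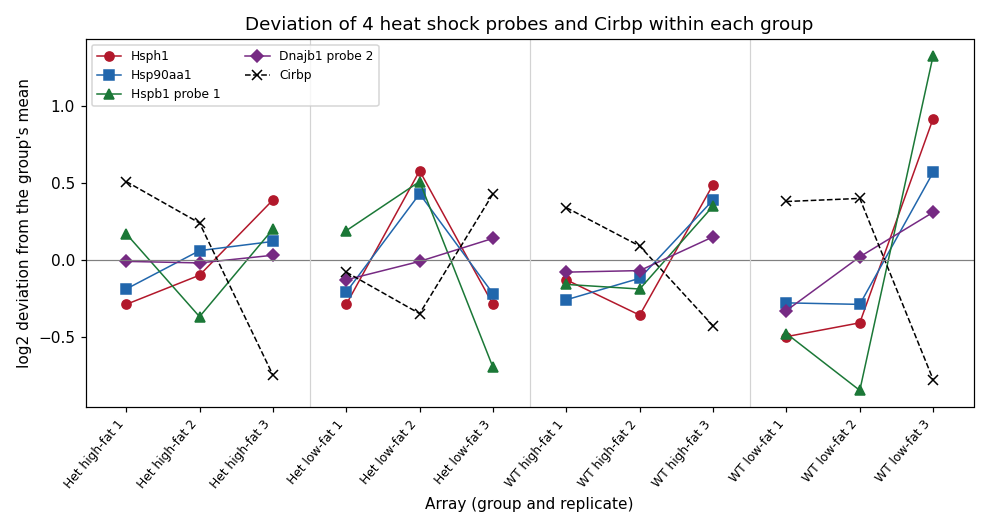
Deviation from the group mean (log2) of Hsph1, Hsp90aa1, Hspb1 probe 1, Dnajb1 probe 2 and the cold-inducible gene Cirbp on each of the 12 arrays, with the groups from left to right as Het high-fat, Het low-fat, WT high-fat and WT low-fat. Lines join the 3 mice of a group and carry no order. In each group the mouse highest in Hsph1 is the mouse lowest in Cirbp.

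Other genes known as HSF1 targets, most of them cytosolic, shared the pattern. Of 17 measured, 15 had a positive within-group correlation with Hsph1, with a median of 0.60, against -0.12 over all probes, and leaving out each array in turn gave medians of 0.41, without WT low-fat replicate 3, to 0.70. Closest were Chordc1 (0.90), which binds HSP90, Hspa4l and Cacybp (both 0.89), the HSP70 to HSP90 adaptor Stip1 (0.87), the HSP90 activator Ahsa1 (0.86) and the HSP70 cochaperone Bag3 (0.79), and lowest was Hspa2 (-0.55). These genes were picked from the list after their values were seen. Chaperones of the endoplasmic reticulum had a median of 0.45 over 15 genes, 12 of them positive, led by Creld2 (0.92), Hspa5 (0.91), the ER HSP70, and Dnajb11 (0.83). The pattern was weaker for the cytosolic chaperonin CCT (median 0.31, 6 of 8 positive) and for cochaperones (0.14, 12 of 21), and the mitochondrial chaperones were at -0.17 (4 of 12). Cell type markers had medians of 0.15 for cholangiocytes, 0.21 for stellate cells and -0.32 for hepatocytes.

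Cirbp and Rbm3, RNA-binding proteins known to rise when cells are cooled and to fall when they are warmed, ran the opposite way. Cirbp had levels of 3.07, 2.80 and 1.81 in Het high-fat, 2.81, 2.53 and 3.32 in Het low-fat, 3.19, 2.93 and 2.41 in WT high-fat and 3.17, 3.19 and 2.01 in WT low-fat livers. In each group its lowest mouse was the mouse with the highest Hsph1. The within-group correlations with Hsph1 were -0.88 for Cirbp and -0.73 for Rbm3, and with Hsp90aa1 they were -0.84 and -0.63. Their median with Hsph1 stayed between -0.86 and -0.72 when each array was left out in turn. The 14 clock genes measured had a median of -0.34 with Hsph1, but ran from -0.79 to 0.64, with 4 of them positive. The 14 immediate early genes had a median of -0.04 and ran from -0.73 to 0.36. The labels used here do not give the hour at which a mouse was killed or its body temperature, and the part of either was not tested.

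The mean of Hspa1a, Hspa8, Hsph1, Dnajb1 and Hsp90aa1, each by its brightest probe, was most like 5033430I15Rik and Tmprss2 (both r = 0.88), Nmt2, Mal2 and Rit1 (all 0.87) and Hspa4l (0.86) over the 12 arrays, with a median of -0.07 over all probes. Of these Hspa4l is itself a heat shock protein of the HSP110 family.

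The rest of the chaperone network was counted in lists chosen by function, 1 probe per gene. Of 8 genes of the HSF family and its regulators, 2 were higher and 3 lower on the high-fat diet over both genotypes, against 29.4% of all probes called. Hspbp1, which makes HSP70 release its nucleotide, rose by 0.63 ± 0.12 (SE, limma adjusted p = 0.00383) and Hsf4, a relative of Hsf1, by 0.29 ± 0.08 (0.0204). Hsf2bp, which binds HSF2, fell by 1.72 ± 0.43 (limma adjusted p = 0.0136), and Ep300, an acetyltransferase known to act on HSF1, fell by 0.52 ± 0.14 (0.0181). Sirt1 itself fell by 0.30 ± 0.09 (limma adjusted p = 0.0369) by its brighter probe. In Het livers Hspbp1 (0.71 ± 0.17) and Hsf4 (0.41 ± 0.11) also passed (limma adjusted p = 0.0204 and 0.0355), against 14.8% of all probes, and in WT livers none of the 8 did.

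Of 17 other HSF1 target chaperones, most of them cytosolic, 4 were higher and 1 lower on the high-fat diet over both genotypes, 5 of 17 as against the 29.4% of all probes, with a median of 0.22 against -0.03. Serpinh1, the collagen chaperone HSP47 of the endoplasmic reticulum, passed in both genotypes, with 0.75 ± 0.22 in Het and 0.87 ± 0.22 in WT livers and 0.81 ± 0.15 over both (SE, limma adjusted p = 0.0423, 0.0451 and 0.00416). Serpinh1 is expressed by collagen-producing cells, and 6 of 7 stellate markers were higher too, as given above, a part that was not tested. Dnajb2 rose by 0.38 ± 0.11 and Cacybp by 0.34 ± 0.11, and Hspa2 by 0.59 ± 0.20 (limma adjusted p = 0.0265, 0.0389 and 0.044). Hspa4, of the HSP110 family, fell by 0.41 ± 0.10 (limma adjusted p = 0.0118).

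Among 21 cochaperones of HSP70 and HSP90, 3 were higher and 2 lower over both genotypes, against 29.4% of all probes called. The calls over both genotypes were 2 of 8 among the CCT subunits and 2 of 12 among the mitochondrial genes, against the same 29.4%. Shares of such short lists were not compared by a test. Bag4 (-0.47 ± 0.10) and the HSP40 Dnaja2 (-0.41 ± 0.12) fell, and Sgta (0.43 ± 0.12) and Nudc (0.30 ± 0.08) rose, with limma adjusted p-values of 0.00678 to 0.0238. In Het livers Bag4 and Ptges3, the HSP90 cochaperone p23, fell by 0.53 ± 0.14 and 0.41 ± 0.12 (limma adjusted p = 0.0314 and 0.0464), 2 of 21 against 14.8% of all probes. Of 8 CCT subunits Cct7 (0.41 ± 0.11) and Cct3 (0.38 ± 0.12) rose over both genotypes (limma adjusted p = 0.0173 and 0.0371). Of 12 mitochondrial chaperones and proteases the protease subunit Afg3l2 (0.32 ± 0.09) and the nucleotide exchange factor Grpel2 (0.22 ± 0.07) rose (limma adjusted p = 0.0219 and 0.046), and Grpel2 also passed in WT livers (0.44 ± 0.10, limma adjusted p = 0.0369), where 5.67% of all probes were called.

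Against 29.4% of all probes called over both genotypes, 2 of 15 ER chaperones, 3 of 14 clock genes and 7 of 14 immediate early genes passed. Of the ER chaperones the disulfide isomerases Pdia6 (-0.37 ± 0.11) and Pdia3 (-0.31 ± 0.09) fell over both genotypes (limma adjusted p = 0.0231 and 0.026), and none rose. The diet difference was positive for 1 of 15 in Het and 9 of 15 in WT livers, with medians of -0.25 and 0.05, and for the interaction 0 of 15 passed by limma. Of the clock genes Clock (-0.41 ± 0.13) and Nr1d1 (-0.74 ± 0.25) fell and Per3 (0.77 ± 0.26) rose over both genotypes (limma adjusted p = 0.038, 0.0446 and 0.049). Of the immediate early genes 3 were higher and 4 lower, led by Atf3 (1.75 ± 0.22) and Junb (-2.32 ± 0.33), with limma adjusted p-values of 0.000695 and 0.00118. Cirbp and Rbm3 did not pass, with 0.48 ± 0.18 for Rbm3 (limma adjusted p = 0.0691). For the genotype comparisons and the interaction, 0 genes of any of these lists passed by limma.

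**Figure D5:**
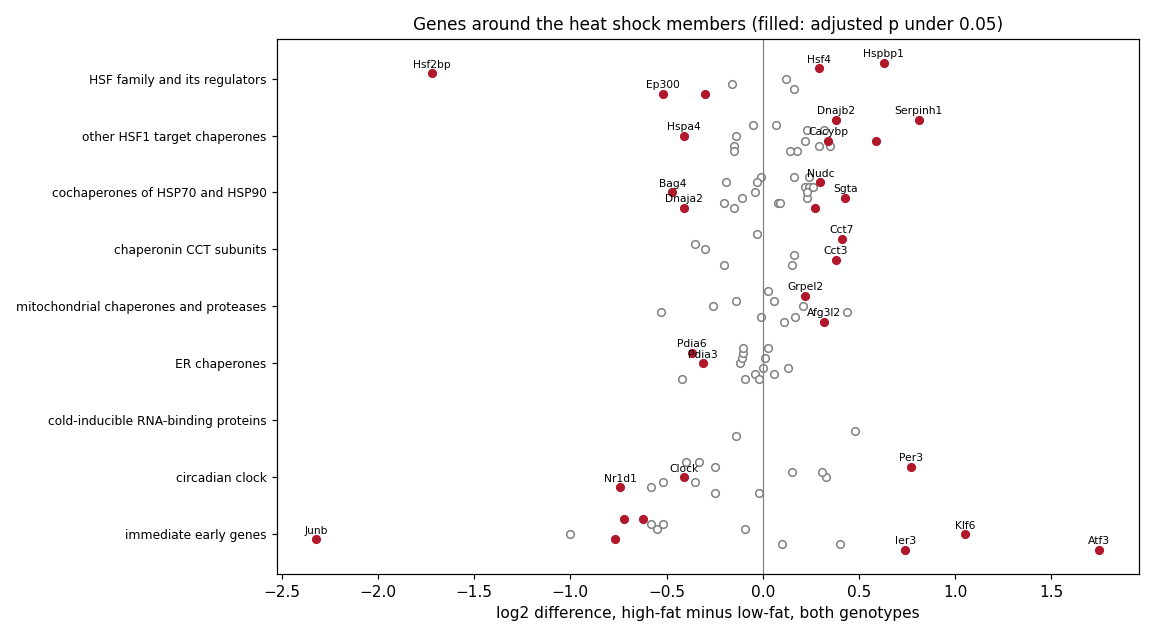
Log2 difference of high-fat minus low-fat livers over both genotypes for each measured gene of the pathway lists, 1 row per list. Each point is 1 gene, filled where the limma adjusted p is under 0.05, with at most the 4 of lowest p per list named. Serpinh1 at 0.81 lies farthest right among the HSF1 targets, and the 2 ER chaperones that passed lie left of 0.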

How the data were processed

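Liver RNA of 12 mice was hybridised to 1-colour arrays and labelled with Cy3, per the labels' protocols. The deposited scanner tables give a processed intensity, corrected for background within the array, per the file headers, and the submitters' processing notes name Agilent Feature Extraction 9.5 as their source. The authors also deposited 0 or 1 flags that mark outlying and saturated spots and those well above background. The deposited series table held the same intensity values (largest difference 0) and gives no independent alternative.

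Each level is log2 of the processed intensity minus log2 of the array's 75th percentile over non-control spots. Control spots and 1344 outlier spots were left out and spots of 1 probe averaged. Tested probes were those well above background on every array of 1 or more groups, with 2 or more values per group. limma 3.58.1 (R 4.3.3) fitted the 4 group means (8 residual and 3 prior degrees of freedom), with Benjamini-Hochberg adjustment over all probes tested in each of 7 comparisons and a threshold of 0.05. The fit was checked on simulated data. Genotype, diet and replicate came from the labels. Alternatives were other scaling, background and filter choices, slide as a block, the replicate number as a block, 1 probe per gene and leaving out each array.

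The heat shock members, the pathway lists and the markers were chosen with earlier results of these data known. Named are all member probes, from each list the genes past the threshold (at most 4 of lowest p per comparison, exceeded where a count of 5 or fewer is spelled out, with genes chosen after their values were seen), and the 6 probes most like each member profile. Not every gene past the threshold is reported here. Within-group correlations are Pearson's r of deviations from group means. Probe coordinates, per the file headers, belong to mm7, and promoter sequences are RefSeq's on GRCm38.p6. Same-numbered arrays of different groups had whole-array correlations of -0.46 to 0.46, so the numbers did not pair the mice.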

Additional observations from a re-analysis of the deposited data

How the results depend on the processing

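Calls of heat shock probes were few and moved with the settings. The count for diet in Het livers, 1, was 0 without the filter on dim probes, with 1 probe per gene and with the replicate number as a block, 6 with slide as a random block, and 0 to 2 when each array was left out. The count over both genotypes, 3, was 0 without the filter and with 1 probe per gene, and 2 with the replicate block, with quantile and with median scaling. It was 4 with normexp, 7 with slide as a random block, and 0 to 4 when each array was left out. The fit with 1 probe per gene kept only the brightest probe of each gene. The heat shock probes called in the main fit were not in it, so its counts of 0 do not test those calls. The counts for diet in WT, genotype and the interaction stayed at 0 under every alternative run. Over all probes, the calls in Het livers, 3735, were 1567 without the filter, 2624 with the replicate block and 7808 with slide as a random block, those in WT, 1436, were 206 without the filter, 688 with the replicate block and 5448 with the random block, and those over both, 7433, were 12811 with the random block, whose within-slide correlation was -0.18. Leaving out 1 array gave 1132 to 4129 calls over all probes in Het, lowest without Het high-fat replicate 1 and 1446 to 2169 without a Het low-fat array, 261 to 1644 in WT, lowest without WT high-fat replicate 3, and 5371 to 8137 over both. The cause of these shifts was not tested. Of 2426 recomputed values of single probes, 2358 kept their side of the threshold, 24 newly passed, 44 no longer passed and 0 reversed a called direction. The sign of values that passed in neither fit was not counted, and some changed. Leaving out 1 array, the diet difference of Hsf1 probe 2 in Het livers ran from -0.78 to 0.32. Diet coincides with scan day, 3 mice per group limit the precision, and dim probes (Hspa1a probe 2) lie near background.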
